A study of Mus musculus with 41 samples.

Results

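The genes described here are 9 members of the insulin-like growth factor (IGF) and insulin signalling system: the 6 IGF binding protein genes Igfbp2, Igfbp3, Igfbp4, Igfbp5, Igfbp6 and Igfbp7, the IGF1 receptor gene Igf1r, and the insulin receptor substrate genes Irs1 and Irs2. They were taken by gene name, with no threshold on a value, although earlier results of these data were known. All 9 were listed in each of the 3 expression tables under the same Ensembl identifier, among the 12694 genes common to the tables (13886, 12984 and 13407 genes per table), and no filter removed any of them.

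The 41 RNA-seq libraries, in 13 groups, come from MEEC, an endocardial line of wild-type genotype established from mouse embryos; the endocardium is the inner lining of the heart. In the first experiment MEEC were laid at 50% confluency for 6 h, or at 25% for 24 h, over a layer of OP9 cells at 90% confluence; the OP9 cells, a mouse stromal line, expressed GFP (control) or 1 of the Notch ligands Dll4 and Jag1 (n = 3 libraries each). In the second, MEEC spent 24 h with DMSO, the vehicle, or with RO4929097 at 20 µM, a gamma-secretase inhibitor that stops release of the Notch intracellular domain, and were then laid for 6 h over OP9-GFP cells (n = 4). In the third, without OP9 cells, MEEC were grown for 38 h, the last 14 h without serum, in DMSO alone, on immobilised recombinant ligand with DMSO (rDLL4, a His-tagged DLL4, or rJAG1, an Fc-tagged JAG1), or on the same ligands with 20 µM RO4929097 (rDLL4+RO, rJAG1+RO; n = 3). The DMSO cultures had no ligand, and no group had the inhibitor without ligand in that experiment. The MEEC of all groups derive from 1 cell line. Over OP9 cells, each ligand came on its own OP9 cells, so ligand and feeder cells cannot be told apart. The recombinant ligands carried different tags, so ligand and tag cannot be told apart either. The labels do not name separate cultures behind the libraries, and the p-values therefore reflect spread between libraries alone, which may be technical.

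IGF1 and IGF2 are secreted growth factors that act through the tyrosine kinase receptor IGF1R. IGFBP2 to IGFBP6 bind the IGFs with high affinity, carry them and limit or prolong their access to the receptor, while IGFBP7 binds IGFs weakly and is known as a matrix protein of blood vessels. Activated IGF1R and insulin receptor phosphorylate the adaptors IRS1 and IRS2, which recruit PI3-kinase and so switch on Akt.

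The reads recovered per library numbered 14101202 to 16821361 for the contact experiment, 19432983 to 25171944 for the inhibitor co-culture and 11197893 to 34188335 for the recombinant ligands. Values are the deposited normalized signal, given for libraries 1, 2, 3 (and 4) in that order, with group means ± SD. Fold changes are log2(signal + 1) differences ± SE from limma, called at a Benjamini-Hochberg adjusted p under 0.05 over all genes of a table. Of 18 endothelial and endocardial markers, 9, 8 and 8 were listed in the 3 tables; Pecam1, Cdh5, Tie1, Emcn, Erg, Sox17, Sox18, Vwf and Plvap were not listed in any. The labels do not say that OP9 and MEEC RNA were separated in the co-cultures, so signal from either cell type, and fewer cells of a type or less RNA per cell, cannot be told apart there. The summed signal of 15 OP9 stromal markers (10, 8 and 9 listed) was 1045 to 1766, 1112 to 2014 and 1173 to 2111 in the 3 experiments. These sums cover unlike gene sets in tables normalized separately, and the last had no OP9 cells. Group means of Pdgfra (18.7 and 20.4) and Vcam1 (248 and 264.5) were higher in the inhibitor co-culture than without OP9 cells (4.26 to 6.76 and 59.3 to 104). Those of Lpl, Dcn, Kitl and Cebpb were lower. Cxcl12 was 931 and 1034 in the inhibitor co-culture libraries numbered 1, 176 to 287 in its others and 118 to 260 without OP9 cells. The share of OP9 RNA was not tested. Summed Notch target signal (5 of 8 listed) was 125 to 152 with rJAG1, 81.7 to 92.0 with rDLL4, 36.2 to 44.6 in DMSO and 26.9 to 35.8 with either ligand plus inhibitor.

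Levels between genes were compared as signal per kilobase of exon. Igfbp4, which encodes an inhibitory IGF carrier, had the highest median in every experiment, 77.3, 89.4 and 98.9 per kilobase. It was followed by Igfbp3 (72.2, 72.6 and 64.8), Igfbp6 (54.9, 64.7 and 42.1), Igfbp7 (40.2, 27.4 and 26.9) and Irs2 (19.3, 12.2 and 12.8). Igf1r, Irs1 and Igfbp2 lay between 6.11 and 11.9 in an order that changed between experiments, with overlapping ranges. Igfbp5 was lowest throughout, with medians of 0.325, 0.504 and 0.636 per kilobase. Neighbours in this order mostly overlapped across libraries: in the first experiment Igfbp4 spanned 57.7 to 112 per kilobase and Igfbp3 38.1 to 224. Igfbp5 did not overlap any other member, with a highest value of 1.56 per kilobase in the third experiment against a lowest of 5.15 for Irs1.

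In build GRCm38 with GENCODE M21 gene models, Igfbp2 (chromosome 1, 72824503 to 72852474, plus strand) and Igfbp5 (chromosome 1, 72857932 to 72874884, minus strand) lie side by side. Irs1 is on the same chromosome (82233101 to 82291416, minus strand) and Irs2 is on chromosome 8 (10984681 to 11008458, minus strand). Igfbp7 is on chromosome 5 (77349240 to 77408041, minus strand). Exons of Igfbp7, Irs1 and Irs2 overlap exons of the plus-strand genes Polr2b, Gm9747 and 9530052E02Rik, and the strand setting of the counting was not given in the sources used here, so reads in those overlaps cannot be assigned with certainty.

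On recombinant ligand, 4 of the 9 genes were called in rJAG1 against DMSO, where 9.58% of all genes were called: Igfbp7 and Irs2 rose, and Igfbp5 and Irs1 fell. In rDLL4 against DMSO 2 were called, Igfbp7 and Irs2, both higher, against 3.50% of all genes. With the inhibitor added to rJAG1, the same 4 genes were called in the opposite directions against rJAG1 alone (18.4% of all genes called). With the inhibitor added to rDLL4, Igfbp5 was higher and Igfbp7 and Irs2 lower than with rDLL4 alone (10.7% of all genes called). These comparisons share the rJAG1 or rDLL4 libraries or the DMSO libraries, so they are not independent of each other. The median log2 fold change of the 9 genes was -0.08 in rJAG1 against DMSO, beside 0.0014 for all genes tested, and 0.17 in rJAG1+RO against rJAG1, beside 0.0051.

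**Figure D1:**
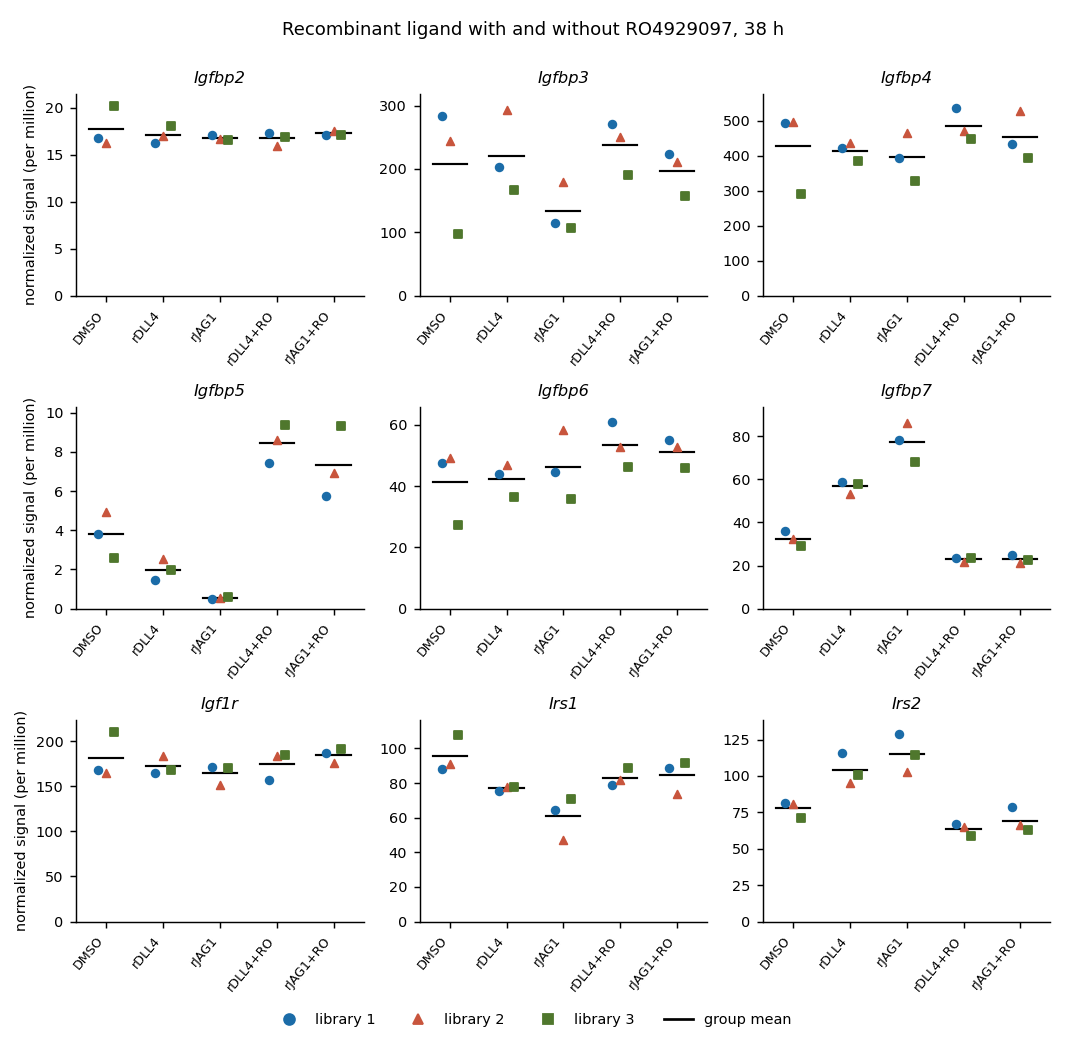
Normalized signal of the 9 genes (vertical axes, each from 0) in the 5 groups of the recombinant ligand experiment (horizontal axes); points are libraries, coloured by library number, and lines are group means. Igfbp7 and Irs2 are highest and Igfbp5 and Irs1 lowest with rJAG1, where Igfbp5 lies between 0.502 and 0.582.

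Igfbp7 rose with both ligands. Its signal was 35.9, 32.5 and 29.0 in DMSO, 58.8, 53.3 and 58.0 with rDLL4, and 78.2, 85.9 and 68.0 with rJAG1. Every ligand library lay above every DMSO library, and every rJAG1 library above every rDLL4 library. It rose with rJAG1 by 1.23 ± 0.10 (77.4 ± 8.99 against 32.5 ± 3.48, limma adjusted p = 1.3e-06) and with rDLL4 by 0.79 ± 0.10 (56.7 ± 3.01, limma adjusted p = 0.00026). With the inhibitor the signal was 25.1, 21.3 and 22.7 on rJAG1 and 23.5, 21.5 and 23.6 on rDLL4, below all DMSO libraries in both groups. The inhibitor lowered it by 1.70 on rJAG1 (log2 fold change -1.70 ± 0.10, limma adjusted p = 1.5e-08) and by 1.27 on rDLL4 (-1.27 ± 0.10, limma adjusted p = 7.4e-07). All 4 of these calls held in each of the 6 fits that left out 1 library.

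The 250 bases before the RefSeq transcription start of Igfbp7 and of Igfbp5, the genes with the largest changes, are given because these are the windows searched for motifs below. Both are written 5′ to 3′ on the gene's strand, from RefSeq in build GRCm38.p6.
Igfbp7 (chr5:77408046-77408295, minus strand): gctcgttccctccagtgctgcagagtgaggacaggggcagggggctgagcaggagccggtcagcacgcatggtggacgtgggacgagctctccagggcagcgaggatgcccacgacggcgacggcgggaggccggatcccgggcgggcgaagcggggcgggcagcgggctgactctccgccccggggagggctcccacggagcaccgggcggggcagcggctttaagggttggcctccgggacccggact
Igfbp5 (chr1:72874866-72875115, minus strand): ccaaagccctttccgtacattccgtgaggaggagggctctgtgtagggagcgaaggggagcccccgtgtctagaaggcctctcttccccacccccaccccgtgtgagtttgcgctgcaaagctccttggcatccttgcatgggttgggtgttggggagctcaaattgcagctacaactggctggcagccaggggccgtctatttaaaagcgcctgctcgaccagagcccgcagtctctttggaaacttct

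Igfbp5, which encodes an IGF carrier that also binds extracellular matrix, went the other way, at low levels. Its signal was 3.82, 4.94 and 2.60 in DMSO, 1.46, 2.52 and 2.00 with rDLL4, and 0.502, 0.544 and 0.582 with rJAG1, the last from 6 to 9 reads per library against 46 to 172 in DMSO. The 3 groups did not overlap. It fell with rJAG1 by 1.60 on the log2 scale (-1.60 ± 0.19, limma adjusted p = 5.3e-05, kept in 6 of 6 fits that left out 1 library); the edgeR fit on recovered reads, without the added 1, gave -2.88 (adjusted p = 3.4e-05). With rDLL4 the difference of -0.66 ± 0.19 did not pass (limma adjusted p = 0.085), but did in the fit blocked on replicate number (limma adjusted p = 0.041, where 6.47% of all genes were called).

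With the inhibitor Igfbp5 reached 5.76, 6.94 and 9.31 on rJAG1 and 7.42, 8.60 and 9.36 on rDLL4. Every one of these 6 libraries was above every DMSO library. The rise was 2.41 ± 0.19 on rJAG1 (7.34 ± 1.81 against 0.543 ± 0.040, limma adjusted p = 4.4e-07), a ratio of mean signal of 13.5. On rDLL4 it was 1.67 ± 0.19 (8.46 ± 0.978 against 1.99 ± 0.527, limma adjusted p = 3.7e-05), a ratio of 4.25. Both calls were kept in 6 of 6 fits that left out 1 library.

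The groups with ligand and inhibitor were also compared with DMSO. In rJAG1+RO 1 of the 9 genes was called (0.940% of all genes), Igfbp7, lower by 0.47 (-0.47 ± 0.10, limma adjusted p = 0.031). In rDLL4+RO 2 were called (1.40% of all genes): Igfbp5, higher by 1.01 ± 0.19 (limma adjusted p = 0.018), and Igfbp7 (-0.48 ± 0.10, limma adjusted p = 0.023). Each of these 3 calls was kept in 2 of 6 fits that left out 1 library. For Igfbp7 in rJAG1+RO the call was lost without DMSO library 1 or 2 or rJAG1+RO library 2 or 3. For Igfbp7 in rDLL4+RO it was lost without DMSO library 1 or any rDLL4+RO library, and for Igfbp5 without DMSO library 1 or 3 or rDLL4+RO library 2 or 3. In the fit blocked on replicate number, Igfbp5 in rJAG1+RO (0.81, limma adjusted p = 0.026, 2.90% of all genes called) and Irs2 in rDLL4+RO (-0.29, limma adjusted p = 0.031, 4.38% of all genes called) also passed.

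The other 4 binding protein genes were not called in any of the 7 comparisons among these groups without the block. Igfbp2, an IGF carrier of fetal tissues, stayed between 16.0 and 20.2 in all 15 libraries. Igfbp4 ran from 291 to 537 and Igfbp6, a carrier that prefers IGF2, from 27.2 to 61.0. Igfbp3, the main IGF carrier of serum, was 284, 244 and 97.4 in DMSO and 115, 179 and 107 with rJAG1, and the groups overlapped (-0.54 ± 0.33, limma adjusted p = 0.39). DMSO library 3 was the lowest of the 15 for Igfbp3, Igfbp4 and Igfbp6. Without the libraries numbered 3, an alternative chosen after seeing the data, Igfbp3 was called lower with rJAG1 (-0.87, limma adjusted p = 0.022), while the calls of Igfbp5, Igfbp7, Irs1 and Irs2 with rJAG1 kept their side of the threshold. Igfbp3 in rJAG1+RO against rJAG1 passed only in the fit blocked on replicate number (0.58, limma adjusted p = 0.049, 27.1% of all genes called).

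The receptor gene Igf1r was not called in any comparison of the recombinant ligand experiment. Its group means ran from 164 ± 11.7 with rJAG1 to 185 ± 7.89 with rJAG1+RO.

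The substrate genes Irs1 and Irs2 changed in opposite directions. Irs1 was 87.9, 90.8 and 108 in DMSO, 75.4, 77.9 and 77.5 with rDLL4, and 64.6, 47.1 and 70.7 with rJAG1, with no overlap between the 3 groups. It fell with rJAG1 (-0.66 ± 0.13, limma adjusted p = 0.0027, kept in 6 of 6 fits that left out 1 library), and did not pass with rDLL4 (-0.30 ± 0.13, limma adjusted p = 0.32). Irs2 was 81.7, 81.0 and 71.1 in DMSO, 116, 94.9 and 101 with rDLL4, and 129, 103 and 115 with rJAG1; both ligand groups lay above DMSO and overlapped each other. It rose with rJAG1 by 0.56 ± 0.10 (limma adjusted p = 0.0024, 6 of 6) and with rDLL4 by 0.41 ± 0.10 (limma adjusted p = 0.044), the latter call being lost in each of the 6 fits that left out 1 library.

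With the inhibitor on rJAG1, Irs1 was 88.6, 73.9 and 91.6 and Irs2 78.7, 66.6 and 62.7, and neither overlapped rJAG1 alone. Irs1 rose by 0.49 ± 0.13 (limma adjusted p = 0.013), a call lost without rJAG1 library 2 or rJAG1+RO library 3. Irs2 fell by 0.72 (-0.72 ± 0.10, limma adjusted p = 0.00014). On rDLL4, Irs2 fell by 0.70 with the inhibitor (-0.70 ± 0.10, limma adjusted p = 0.00038) and Irs1 did not pass (0.11 ± 0.13, limma adjusted p = 0.66). Summed endothelial marker signal moved beside these groups, at 136 to 201 in DMSO, 104 to 119 with rJAG1 and 151 to 172 with rJAG1+RO. Of 18 markers 8 were listed, and 1 was called lower with rJAG1. Most of the sum was Tek (means 81.3, 48.1 and 81.9 in that order) and Cd34 (68.4, 35.1 and 56.3). Npr3, Fli1 and Egfl7 also had lower means with rJAG1 than in DMSO. Kdr, Eng and Nfatc1 had higher means with rJAG1 than in DMSO and their lowest of these groups with rJAG1+RO. The part of these markers in the results was not tested.

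The windows of Irs1 and Irs2, the pair that moved apart, are given in the same way, with the letters CACGTG in capitals. The Irs2 window ends upstream of the start of the GENCODE gene model.
Irs1 (chr1:82291440-82291689, minus strand): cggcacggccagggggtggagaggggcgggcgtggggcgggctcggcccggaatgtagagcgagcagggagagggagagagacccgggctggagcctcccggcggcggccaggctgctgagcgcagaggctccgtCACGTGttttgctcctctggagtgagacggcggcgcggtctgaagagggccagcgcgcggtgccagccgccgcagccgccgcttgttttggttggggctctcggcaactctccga
Irs2 (chr8:11008930-11009179, minus strand): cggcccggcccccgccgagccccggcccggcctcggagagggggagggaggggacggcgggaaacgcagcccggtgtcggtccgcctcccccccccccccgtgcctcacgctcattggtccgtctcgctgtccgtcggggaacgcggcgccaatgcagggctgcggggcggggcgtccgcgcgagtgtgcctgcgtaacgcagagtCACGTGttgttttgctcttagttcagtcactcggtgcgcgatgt

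In the windows of the 9 genes (10 windows, since Igfbp2 has 2 RefSeq starts), 3 motifs were searched on both strands. CACGTG, the canonical E-box that Hey and other basic helix-loop-helix factors can bind, occurred in the windows of Irs1 (first base at -115), Irs2 (-44) and Igfbp2 (-142), and in 6.02% of 32851 RefSeq windows of the same length. TGGGAA, the core of the RBPJ motif (21.6% of all windows), and TGTTTAC, a FoxO core (3.17%), are not in these windows. The letters CACGTG were thus shared by Irs1, which fell with rJAG1, Irs2, which rose, and Igfbp2, which was not called; these are matches of letters only. The Irs1, Irs2 and Igfbp7 windows held 72.4%, 72.8% and 74.0% G and C, beside a median of 52.4% over all windows. The Igfbp5 window held 58.8%. The other windows held 77.6% (Igf1r), 73.2% (Igfbp3), 69.2% (Igfbp4), 67.2% and 56.4% (Igfbp2) and 49.6% (Igfbp6).

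Between the ligands, 0 of the 9 genes were called in rDLL4 against rJAG1 by limma or by edgeR (0.231% of all genes called by limma). An unadjusted limma p under 0.05 was found for 4 of the 9 and for 958 of all 13407 genes. Igfbp5 was higher with rDLL4 in all libraries (0.94 ± 0.19, limma adjusted p = 0.062) and Igfbp7 lower in all (-0.44 ± 0.10, limma adjusted p = 0.10). In the fit blocked on replicate number both passed, with limma adjusted p = 0.025 and 0.034 (0.880% of all genes called). The inhibitor effect on rDLL4 minus that on rJAG1 was -0.74 ± 0.27 for Igfbp5 and 0.43 ± 0.14 for Igfbp7. For this difference 0 of the 9 were called by limma (0.0149% of all genes), with or without the block, or by edgeR. Its unadjusted limma p was under 0.05 for 2 of the 9 and for 496 of all 13407 genes.

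Over OP9 cells, Irs1 was again the gene with a call. At 6 h, 1 of the 9 was called in OP9-Jag1 against OP9-GFP (0.101% of all genes): Irs1 was 95.3, 89.8 and 85.2 over OP9-GFP and 69.0, 64.0 and 60.7 over OP9-Jag1, with no overlap (-0.48 ± 0.08, limma adjusted p = 0.032). This call was lost in each of the 6 fits that left out 1 library and was kept in the fit blocked on replicate number (limma adjusted p = 2.0e-06). Over OP9-Dll4 Irs1 was 73.7, 73.2 and 65.4, below all OP9-GFP libraries, and did not pass (-0.35 ± 0.08, limma adjusted p = 0.54, or 0.00022 with the block). There 0 of the 9 were called by limma or edgeR (0.00720% of all genes by limma, 1.17% with the block). An unadjusted limma p under 0.05 was found for 1 of the 9 and for 539 of all 13886 genes. Irs2 in OP9-Jag1 passed only with the block (0.22, limma adjusted p = 0.027, where 3.36% of all genes were called).

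At 24 h Irs1 was 105, 109 and 94.0 over OP9-GFP, 80.3, 88.4 and 70.5 over OP9-Dll4, and 71.5, 75.9 and 69.3 over OP9-Jag1. Both ligand groups lay below OP9-GFP and overlapped each other. In OP9-Jag1, 1 of the 9 genes was called (2.02% of all genes): Irs1 fell by 0.50 (-0.50 ± 0.08, limma adjusted p = 0.0038, kept in 6 of 6 fits that left out 1 library). In OP9-Dll4, 0 were called by limma or edgeR (0.511% of all genes by limma). An unadjusted limma p under 0.05 was found for 2 of the 9 and for 944 of all 13886 genes. Irs1 there stood at -0.36 ± 0.08 (limma adjusted p = 0.062, or 2.3e-05 with the block).

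Irs2 at 24 h was 92.1, 107 and 101 over OP9-GFP, 119, 141 and 138 over OP9-Dll4, and 125, 137 and 146 over OP9-Jag1, so both ligand groups lay above the control. The difference of 0.44 ± 0.12 over OP9-Jag1 did not pass (limma adjusted p = 0.093) and passed with the block (1.9e-05). Over OP9-Dll4 it was 0.40 ± 0.12 (limma adjusted p = 0.27, or 0.00011 with the block). Igfbp7 also lay above the control in all libraries, at 35.2, 43.1 and 45.0 over OP9-GFP, 46.7, 53.3 and 54.2 over OP9-Dll4, and 51.1, 49.0 and 56.7 over OP9-Jag1. It passed only with the block, by 0.34 over OP9-Jag1 (limma adjusted p = 0.0084) and 0.32 over OP9-Dll4 (limma adjusted p = 0.022). With the block 10.9% of all genes were called in OP9-Jag1, where Igfbp3 also passed (0.23, limma adjusted p = 0.011), and 5.82% in OP9-Dll4. Without the block, leaving out 1 library moved this Igfbp3 value between -0.041 and 0.50, the lowest without OP9-GFP library 1. In OP9-Dll4 at 24 h the summed cardiomyocyte marker signal was 43.8 to 79.1, against 29.5 to 33.2 over OP9-GFP (6 of 10 listed; Myh6, Myl3, Tnni3 and Nppa not listed). The summed endothelial marker signal at 24 h was 113 to 115 over OP9-GFP, 90.3 to 97.3 over OP9-Dll4 and 84.7 to 95.6 over OP9-Jag1, below the control in all ligand libraries (9 of 18 listed). Of these markers Cd34 was called lower in both ligand groups, and no other was called without the block. The part of either marker list in these values was not tested.

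**Figure D2:**
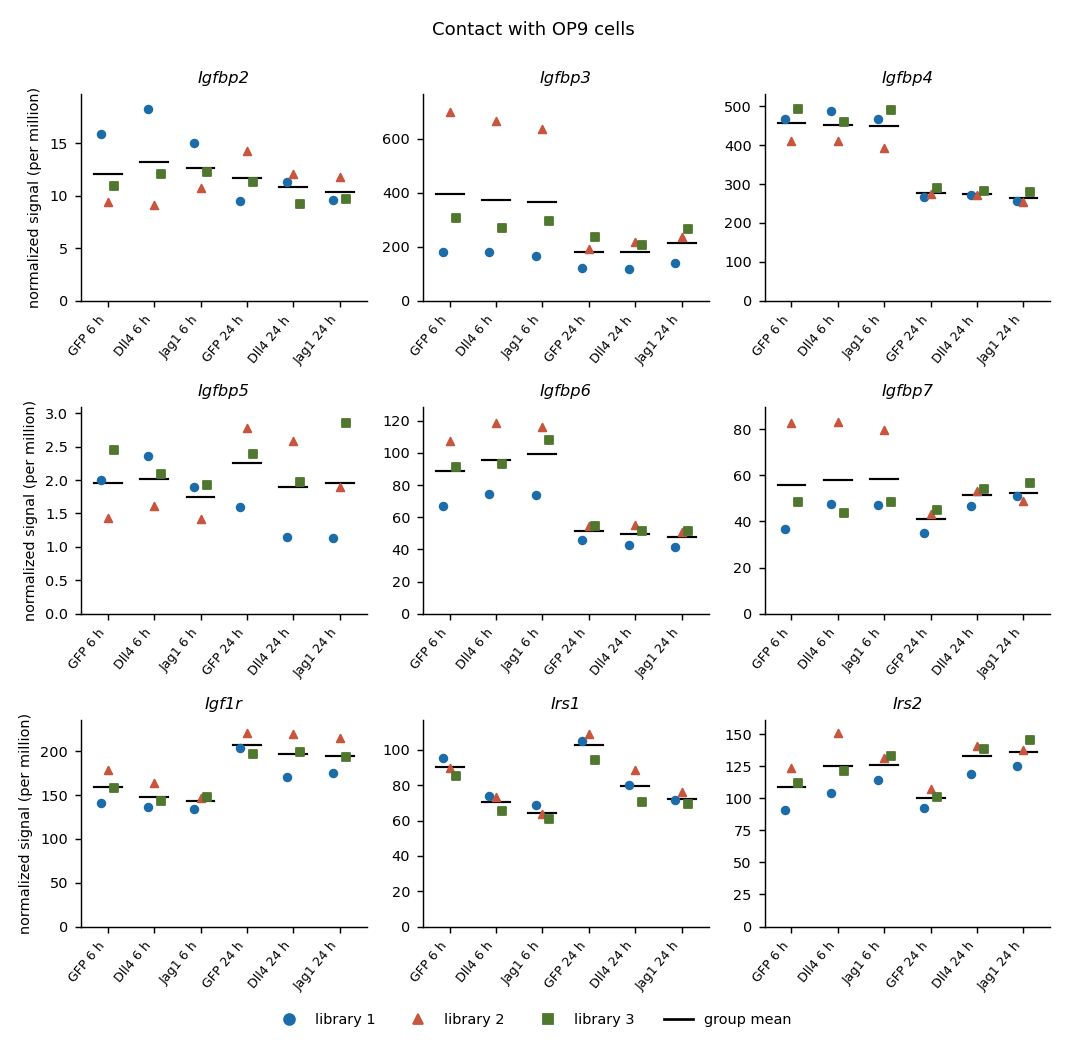
Normalized signal of the 9 genes (vertical axes, each from 0) in MEEC over OP9 cells with GFP, Dll4 or Jag1 at 6 h and 24 h; points are libraries, coloured by library number, and lines are group means. Irs1 is below its control in all ligand libraries, while Igfbp3 at 6 h follows the library number, with 638 to 701 in the libraries numbered 2.

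Between Dll4 and Jag1 contact no member was called. At 6 h 0 were called in OP9-Dll4 against OP9-Jag1 (0% of all genes, 0 members at an unadjusted limma p under 0.05, 0 by edgeR), and at 24 h also 0 (0.0288% of all genes, 0 at an unadjusted limma p under 0.05, 0 by edgeR). Of all 13886 genes, 258 at 6 h and 267 at 24 h had an unadjusted limma p under 0.05. For Irs1 the difference was 0.13 ± 0.08 at 6 h and 0.14 ± 0.08 at 24 h. The effects at 24 h minus those at 6 h also gave 0 calls for either ligand by limma or edgeR (0.00720% of all genes each). An unadjusted limma p under 0.05 was found for 0 members, and for 480 (Jag1) and 390 (Dll4) of all 13886 genes. With the block, Igfbp3 passed for Jag1 (0.33, limma adjusted p = 0.043, 1.31% of all genes called). Without the block, leaving out 1 library moved this value between -0.19 and 0.84, with the sign turned without OP9-GFP 6 h library 2 or OP9-Jag1 6 h library 1.

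At 6 h most of the 9 genes differed more between library numbers than between ligands. Igfbp3 was 180, 701 and 307 over OP9-GFP, 182, 667 and 270 over OP9-Dll4, and 166, 638 and 295 over OP9-Jag1. The means of the 3 numbers spanned 1.92 on the log2 scale and those of the 3 groups 0.10. The numbers spanned more than the groups for 8 of the 9 genes at 6 h, all but Irs1, for 6 at 24 h, 7 in the inhibitor co-culture and 3 on recombinant ligand. The experiments differ in how many numbers and groups enter a span, so these counts cannot be compared between them. The share over all genes was not computed. Igfbp7 at 6 h was likewise high in the libraries numbered 2, at 79.5 to 83.0 against 36.5 to 48.6 in the others. Without those libraries, an alternative chosen after seeing the data, Irs1 in OP9-Jag1 at 6 h stood at -0.47 (limma adjusted p = 0.17).

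Igfbp4, Igfbp6 and Igf1r differed between the times of the control co-culture. In OP9-GFP at 24 h against 6 h, which also differ in MEEC seeding density, 3 of the 9 genes were called, where 19.2% of all genes were. Igfbp4 was 267, 275 and 291 at 24 h and 467, 410 and 494 at 6 h and fell by 0.71 (-0.71 ± 0.09, limma adjusted p = 8.2e-05, kept in 6 of 6 fits that left out 1 library). Igfbp6 was 45.5, 54.2 and 54.8 at 24 h and 66.9, 107 and 91.5 at 6 h (-0.75 ± 0.19, limma adjusted p = 0.013), a call lost without 6 h library 2 or 24 h library 1. Igf1r was 204, 221 and 197 at 24 h and 141, 179 and 158 at 6 h (0.38 ± 0.10, limma adjusted p = 0.018), a call lost without 6 h library 1 or 24 h library 2 and with quantile normalization (0.25, limma adjusted p = 0.14). In none of these 3 genes did the times overlap. They were picked by a call on the same libraries, and the share of all genes without overlap was not computed. Time and seeding density cannot be told apart.

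In MEEC treated with RO4929097 and laid over OP9-GFP, 0 of the 9 genes were called against DMSO by limma or edgeR (0.909% of all genes by limma). An unadjusted limma p under 0.05 was found for 4 of the 9 and for 1362 of all 12984 genes. Irs1 was 106, 81.1, 103 and 97.2 in DMSO and 111, 111, 111 and 116 with the inhibitor, all above DMSO (0.22 ± 0.08, limma adjusted p = 0.30). Irs2 was 82.3, 90.5, 80.1 and 77.8 in DMSO and 75.5, 76.8, 73.2 and 72.9 with the inhibitor, all below (-0.14 ± 0.06, limma adjusted p = 0.37). Igfbp5 was 3.25, 2.11, 2.92 and 2.09 in DMSO and 4.59, 3.14, 4.56 and 2.85 with the inhibitor, higher in each of the 4 pairs of libraries with the same number, though the groups overlapped. It did not pass (0.41 ± 0.17, limma adjusted p = 0.42, or 0.077 with the block). Igfbp7 also overlapped (28.6 ± 6.25 against 35.9 ± 4.88, -0.33 ± 0.15, limma adjusted p = 0.47) and passed with the block (limma adjusted p = 0.033, where 3.29% of all genes were called). Summed endothelial marker signal was 111 to 118 in DMSO and 123 to 136 with the inhibitor, without overlap. Of 18 markers 8 were listed, and 0 were called without the block. Group means of Cd34 (from 54.9 to 72.1), Tek (from 16.5 to 19.3) and Fli1 were higher with the inhibitor. Those of Flt1 (from 4.88 to 2.34), Kdr, Npr3, Egfl7 and Nfatc1 were lower. The part of these markers in the values of the 9 genes was not tested. The inhibitor effects here and on recombinant ligand come from tables normalized separately, and the difference between them was not tested.

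**Figure D3:**
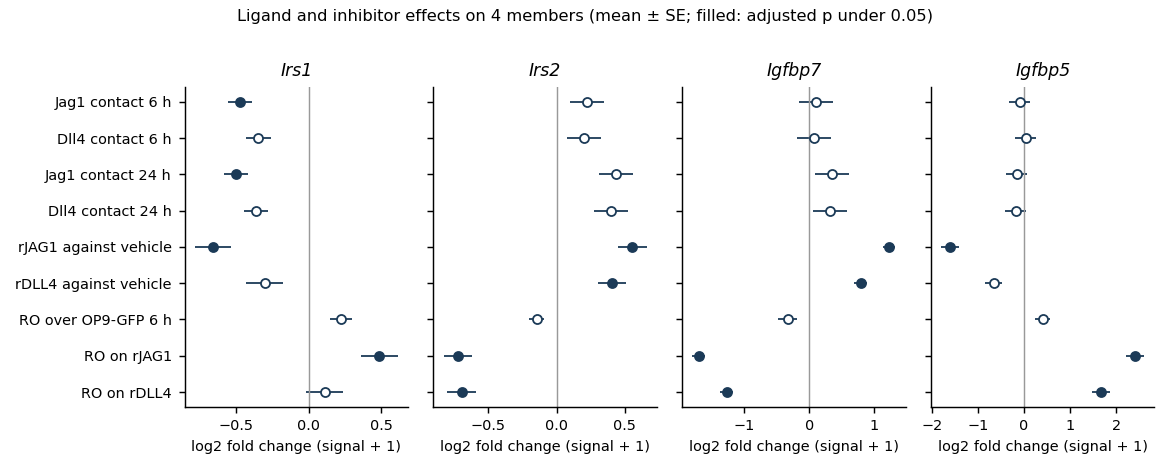
Log2 fold changes of signal + 1 (horizontal axes, bars ± SE) of Irs1, Irs2, Igfbp7 and Igfbp5 in 9 comparisons (rows); filled points have a limma adjusted p under 0.05. Irs1 lies below 0 and Irs2 above 0 in all 6 ligand comparisons, and the 3 inhibitor comparisons have the opposite signs.

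The ratio of Irs2 to Irs1 signal per kilobase puts both substrates in 1 value per library. It was 1.34, 1.29 and 0.952 in DMSO, 2.23, 1.76 and 1.88 with rDLL4, and 2.88, 3.15 and 2.34 with rJAG1, with no overlap between these groups. With the inhibitor the mean was 1.19 ± 0.176 on rJAG1, and the libraries on rDLL4 had 1.22, 1.14 and 0.965; both groups overlapped DMSO. Over OP9 cells the mean at 6 h was 1.75 ± 0.328 with GFP, 2.57 ± 0.473 with Dll4 and 2.84 ± 0.397 with Jag1. At 24 h it was 1.42 ± 0.146, 2.43 ± 0.364 and 2.73 ± 0.271. The ligand groups did not overlap their control at either time. With 3 against 3 libraries the smallest 2-sided exact permutation p is 0.1, which each of these ligand comparisons with a control reached. In the inhibitor co-culture the ratio was 0.961 ± 0.0374 against 1.26 ± 0.239, with no overlap. Its 2-sided exact permutation p was 0.029, the smallest possible with 4 against 4 libraries. The Benjamini-Hochberg adjusted value over 15 comparisons was 0.15, the same for every comparison without overlap. Where Irs1 lay wholly on 1 side of its control and Irs2 wholly on the other, the ratio could not overlap. This was so for both recombinant ligands against DMSO, both 24 h contacts and the inhibitor co-culture. There the permutation p adds nothing to the values of each gene.

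**Figure D4:**
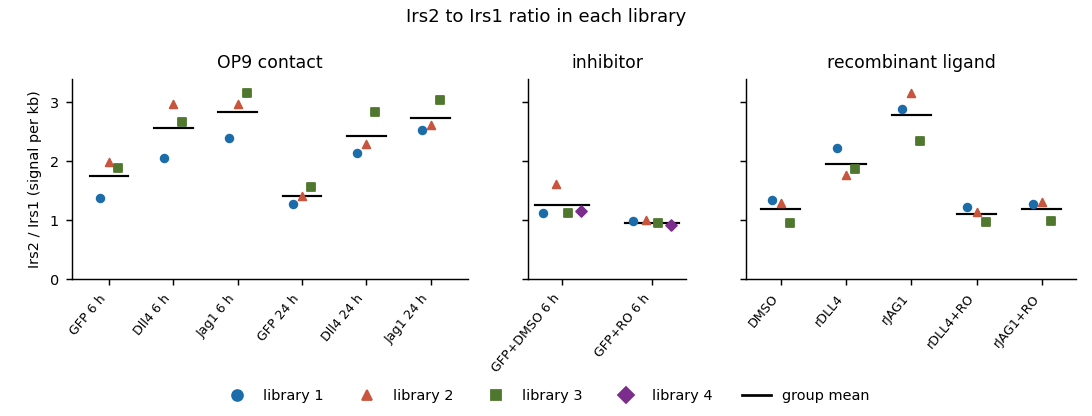
Ratio of Irs2 to Irs1 signal per kilobase (vertical axis, from 0) in each of the 41 libraries by group; points are libraries, coloured by library number, and lines are group means. Groups with Dll4 or Jag1 and no inhibitor lie between 1.76 and 3.16, and the other groups between 0.912 and 1.99.

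Of 64 other genes of the pathway, 55 were listed in the tables of the contact and recombinant ligand experiments and 54 in that of the inhibitor co-culture; Ins1, Ins2, Igfbp1 and Igfals were not listed. In rJAG1 against DMSO 4 were called higher and 6 lower (9.58% of all genes called), and with the replicate block 7 and 9 (15.1%). The growth factor gene Igf2 was 5.19, 4.39 and 3.71 in DMSO and 16.0, 13.4 and 16.7 with rJAG1 (1.59 ± 0.17, limma adjusted p = 1.7e-05). Igf1 was 10.4, 9.60 and 8.13 in DMSO and 4.98, 4.77 and 6.16 with rJAG1, and fell by 0.72 (-0.72 ± 0.12, limma adjusted p = 0.00090). The 2 ligand genes thus moved apart, without overlap between the groups. Pappa2, which encodes a protease that cleaves IGFBP3 and IGFBP5, fell by 1.21 (-1.21 ± 0.17, limma adjusted p = 0.00021). The feedback inhibitor gene Socs2 (0.91 ± 0.13), the Akt-binding pseudokinase gene Trib3 (0.60 ± 0.10) and the mTORC1 inhibitor gene Sesn2 (0.57 ± 0.12) rose. The list's median was -0.03, beside 0.0014 for all genes.

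In rDLL4 against DMSO 4 of the 55 were called (3.50% of all genes), all higher: Igf2 (0.72 ± 0.17, limma adjusted p = 0.029), Socs2, Trib3 and Sesn2. With the block (6.47% of all genes) Sh2b1 was also called, lower. With the inhibitor on rJAG1, 9 rose and 6 fell against rJAG1 alone (18.4% of all genes called), or 14 and 9 with the block (27.1%), led by Igf2 (-1.68 ± 0.17), Pappa2 (1.64 ± 0.17), Igf1 (0.81 ± 0.12) and Pappa (0.65 ± 0.14), which encodes a protease of IGFBP4. With the inhibitor on rDLL4, 4 rose and 2 fell (10.7% of all genes called), with Pappa2 at 0.77 ± 0.17 and Igf2 at -0.61 ± 0.17. Against DMSO, Pappa was the 1 listed gene called in either group with inhibitor, higher by 0.82 ± 0.14 in rJAG1+RO and by 0.90 ± 0.14 in rDLL4+RO. Over OP9-Jag1 at 24 h, Igf2 rose (1.16 ± 0.27, limma adjusted p = 0.036) and the receptor adaptor gene Grb10 fell (-0.43 ± 0.07, limma adjusted p = 0.0041). These were the listed genes called there without the block (2.02% of all genes). Over OP9-Dll4 at 24 h Grb10 was called (-0.39 ± 0.07, limma adjusted p = 0.020, 0.511% of all genes called) and no other listed gene without the block. With the block, 6 were higher and 5 lower over OP9-Jag1 at 24 h (10.9% of all genes called), and 2 higher and 3 lower over OP9-Dll4 at 24 h (5.82%). At 6 h, where none was called without the block, it gave 2 higher and 4 lower over OP9-Jag1 (3.36%) and 1 lower over OP9-Dll4 (1.17%). It also gave 3 higher and 1 lower for the Jag1 effect at 24 h minus 6 h (1.31%) and 1 lower in rDLL4 against rJAG1 (0.880%). In OP9-GFP at 24 h against 6 h 9 of 55 rose and 4 fell, where 19.2% of all genes were called.

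**Figure D5:**
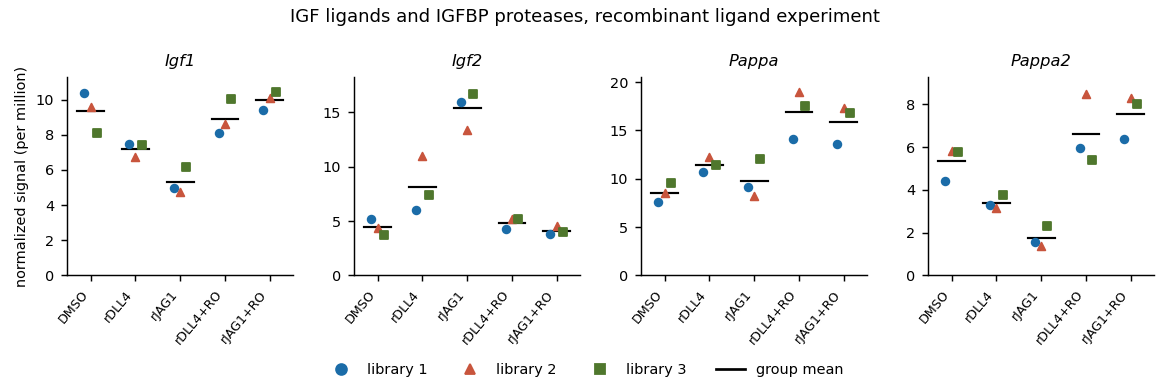
Normalized signal (vertical axes, each from 0) of the ligand genes Igf1 and Igf2 and the protease genes Pappa and Pappa2 in the 5 groups of the recombinant ligand experiment; points are libraries, coloured by library number, and lines are group means. Igf2 is highest with rJAG1 (13.4 to 16.7), where Igf1 and Pappa2 are lowest, and Pappa is highest in both groups with inhibitor.

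Group means of Igfbp5, Igfbp6 and Igfbp7 spanned more than 1 on the log2 scale within an experiment. Over the 13 groups, with each experiment centred, the genes with the nearest profile to Igfbp7 were Foxa2 and Adamts12, at root mean square differences of 0.08 and 0.09 beside the 0.44 of Igfbp7's own profile. For Igfbp5 they were Cysltr1 and Tent5c, at 0.20 and 0.20 beside 0.60, and for Igfbp6 Zcwpw1 and Fbxo2, at 0.06 and 0.08 beside 0.32. These are the nearest of 10648 or 10649 genes and are given as a description.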

How the data were processed

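Per the labels' protocols, total RNA was extracted with PicoPure and made into libraries with NEBNext Ultra. FastQC, cutadapt, RSEM, limma and GRCm38 are named per the submitters' processing notes; settings for trimming, annotation release, strand and versions are not given in the sources used here. For each experiment, the authors deposited 1 table of normalized linear signal. The deposited signal returned whole reads for 100% of values within 0.01 reads. The 100 low values that fix this step well were held by 30 of 41 libraries. These were 18 of 18 contact libraries, 0 of 8 in the inhibitor co-culture and 12 of 15 on recombinant ligand. Of the identifiers, 13863, 12964 and 13384 matched GENCODE M21. A count of 3 reads, the 95% upper limit when none is seen, corresponds to a signal of 0.0859 to 0.266 over the experiments, for counting error only.

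Log2(signal + 1) was fitted with limma 3.58.1 (R 4.3.3), with all groups of a table in 1 fit, a mean-variance trend and Benjamini-Hochberg adjustment over all genes; the added 1 understates the change of low genes. The 15 pairwise contrasts and 3 interactions were fitted within tables. The pipeline was tested on simulated data. Alternatives were a replicate block, edgeR 4.0.16 on recovered reads and a pseudocount of 0.25. Further ones were a mean signal of at least 4, quantile normalization and leaving out each library. The fits that left out 1 library had no replicate block. Titles carry replicate numbers; the lowest correlation of same-numbered libraries was 0.111 or more in the contrasts where the numbers pair them (threshold 0.1). They did not pair in OP9-GFP 24 h against 6 h (lowest 0.056) or rDLL4+RO against rDLL4 (lowest 0.078). Over 45 pairs of libraries of a group, chi-square per gene was 5.46 to 52.5, so none was counted as a duplicate.

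The members, lists and tests were chosen with earlier results of these data known. Named are all 9 members, up to 6 called pathway genes per comparison by size of change, and the 2 genes nearest in profile to members whose group means span more than 1 on the log2 scale. Promoter windows come from RefSeq in build GRCm38.p6.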

Additional observations from a re-analysis of the deposited data

Results flagged for a closer look

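Irs1 in library 4 of MEEC treated with RO4929097 over OP9-GFP, at a signal of 116, stood apart from libraries 1 to 3 of that group. Its gap to the nearest library was 0.92 of the whole range of a narrow group (112 ± 2.23). Of the groups of 4 libraries, 18 were tested in this way over the 9 genes, and chance sets apart about 1 in 20.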

How the results depend on the processing

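Counts of the 9 members called and of all genes called were recomputed under each alternative. The lists below leave out smaller relative changes in these counts. Among those left out, the replicate block added Igfbp5 in rDLL4 and Irs2 in rDLL4+RO against DMSO, and Igfbp3 in rJAG1+RO against rJAG1. With the replicate block, members called went from 1 to 2 in OP9-Jag1 at 6 h, 0 to 1 in OP9-Dll4 at 6 h, 1 to 4 in OP9-Jag1 at 24 h, 0 to 3 in OP9-Dll4 at 24 h, 0 to 1 for the Jag1 effect at 24 h minus 6 h, 0 to 1 for the inhibitor over OP9-GFP, 0 to 2 in rDLL4 against rJAG1 and 1 to 2 in rJAG1+RO against DMSO. All genes called with the block, in place of the counts without it, were 467 (14), 162 (1), 1512 (281) and 808 (71) in those 4 contact comparisons, 67 (4) for Dll4 against Jag1 at 24 h, 182 (1) and 35 (1) for the Jag1 and Dll4 effects at 24 h minus 6 h, 427 (118) for the inhibitor over OP9-GFP, 2022 (1285) in rJAG1 and 868 (469) in rDLL4 against DMSO, 118 (31) in rDLL4 against rJAG1, 389 (126) in rJAG1+RO and 587 (188) in rDLL4+RO against DMSO, and 1 (2) for the difference of the inhibitor effects. Where the numbers do not pair the libraries, the replicate block gave 5 members in place of 3 and 4534 genes in place of 2660 in OP9-GFP at 24 h against 6 h, and 2315 genes in place of 1430 in rDLL4+RO against rDLL4.

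With edgeR the genes called were 46 in OP9-Dll4 at 24 h, 17 in rDLL4 against rJAG1, and 0 for Dll4 against Jag1 at 24 h, the Dll4 effect at 24 h minus 6 h and the difference of the inhibitor effects. With quantile normalization they were 24 in OP9-Jag1 at 6 h and 0 for the Dll4 effect at 24 h minus 6 h, and 1 member was called in rDLL4 against rJAG1, as with a pseudocount of 0.25. A mean signal of at least 4 gave 15 genes in rDLL4 against rJAG1 and 0 for Dll4 against Jag1 at 24 h and the difference of the inhibitor effects, which a pseudocount of 0.25 also put at 0. Without the 6 h libraries numbered 2, chosen after seeing the data, OP9-Jag1 at 6 h gave 0 members and 5 genes and OP9-Dll4 at 6 h 0 genes. Without the recombinant ligand libraries numbered 3, also chosen after seeing the data, rDLL4 against DMSO gave 1 member, rJAG1+RO and rDLL4+RO against DMSO 0 members each with 43 and 47 genes, rDLL4 against rJAG1 8 genes and the difference of the inhibitor effects 0.

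Leaving out 1 library gave members called of 0 in OP9-Jag1 at 6 h, 0 to 1 in OP9-Dll4 at 24 h, 1 to 2 in rDLL4 against DMSO, 0 to 1 in rJAG1+RO against DMSO, 0 to 2 in rDLL4+RO against DMSO, and genes called of 1 to 10 in OP9-Jag1 at 6 h, 0 to 1 in OP9-Dll4 at 6 h, 114 to 293 in OP9-Jag1 at 24 h, 10 to 81 in OP9-Dll4 at 24 h, 0 to 7 in Dll4 against Jag1 at 24 h, 1273 to 2995 in OP9-GFP at 24 h against 6 h, 0 to 4 for the Dll4 effect at 24 h minus 6 h, 48 to 104 for the inhibitor over OP9-GFP, 239 to 758 in rDLL4 against DMSO, 12 to 29 in rDLL4 against rJAG1, 929 to 1084 in rDLL4+RO against rDLL4, 46 to 158 in rJAG1+RO against DMSO, 71 to 301 in rDLL4+RO against DMSO, 0 to 3 for the difference of the inhibitor effects. Log2 fold changes turned sign for Igfbp3, to -0.041 (up to 0.50 in the other fits that left out 1 library) in OP9-Jag1 at 24 h without OP9-GFP library 1, and for the Jag1 effect at 24 h minus 6 h to -0.19 without OP9-GFP 6 h library 2 and -0.13 without OP9-Jag1 6 h library 1 (up to 0.84); the cause was not tested. For single members called under any setting, edgeR and a mean signal of at least 4 changed no call or direction in 40 values each. Leaving out 1 library left 211 values on their side of the threshold, lost the call in 30 and gained it in 4; the replicate block left 22 and gained 18 calls, and lost none. Depth limits Igfbp5, with 6 to 9 reads per rJAG1 library.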
